A study of Mus musculus with 23 samples.

Results

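The comparison described here sets 5 libraries labelled ZBTB7A control against 5 labelled GFP control, 10 of the 23 RNA-seq libraries of the series, and asks what the ZBTB7A vector did to the tissue when no stressor was given. The members were chosen by their labels alone: the virus AAV6-GFAP-GFP, or AAV6-GFAP-ZBTB7A overexpression with GFP, and the stress condition Control. All 10 libraries came from wild-type male C57BL/6J mice, with the age given as 8 weeks. The virus was injected into the orbitofrontal cortex, a frontal region used in judging reward and threat, on day 0. The control procedure stood at day 21, where other mice met a single subthreshold social defeat. All mice were then tested for forced swimming, sucrose preference and social interaction between day 22 and day 27, so that even the unstressed mice had been handled and had swum before the virally infected tissue was dissected on day 28. A general treatment label lists the stressor for every sample, these 10 included, and the stress condition label was followed. The remaining 13 libraries are GFP stress (8) and ZBTB7A stress (5), and they share no library with the comparison.

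ZBTB7A, also known as LRF or Pokemon, is a transcription factor with a BTB domain that recruits corepressors and zinc fingers that bind GC-rich DNA. It is known for keeping genes silent in blood cells and has been linked to the opening of chromatin for NF-kB. Astrocytes, the cells aimed at by the serotype and by the promoter of Gfap, take up glutamate, buffer potassium and switch to a reactive state after injury. Mice of both groups had surgery and a virus, so effects that the 2 vectors share are not visible in their difference. The tissue was not sorted: it holds neurons, vessels and other glia besides astrocytes, and in such bulk samples fewer cells of a type and less RNA per cell cannot be told apart. The labels do not say that each library is a separate mouse, so p-values measure the spread between these samples.

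The values are normalized counts, that is, reads per gene divided by 1 size factor per library. Reads assigned to genes were 15.8 to 34.1 M in GFP control and 12.5 to 40.8 M in ZBTB7A control. Values are listed below in the order GFP control 1, 2, 10, 11 and 19 and ZBTB7A control 6, 14, 15, 23 and 24 after the numbers in the titles. Those numbers pass through the 4 groups in order 3 times, and differences are also given within these 3 runs, which hold 2 GFP and 1 ZBTB7A, 2 and 2, and 1 and 2 of the 10 libraries. Across genes, which are not independent replicates, log2 values correlated at 0.969 to 0.989 within GFP control, at 0.959 to 0.989 within ZBTB7A control, and at 0.964 to 0.990 between the groups. A marker of the named tissue was present in every library: Slc17a7, the vesicular glutamate transporter of cortical neurons, ranged from 22608 to 57296 normalized counts in GFP control and 10938 to 48566 in ZBTB7A control. ZBTB7A control 6 was the lowest of the 10. That library also had the highest level of striatal neuron genes of the 10, and some list medians are also given without it. Leaving it out moved the median of excitatory neuron genes from -0.07 to 0.14. The median of meningeal fibroblast genes moved from -0.27 to -0.09, and that of blood genes from 1.12 to 1.43. Slc17a7 was chosen after its values were seen.

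Zbtb7a itself (Entrez 16969) was not higher in the libraries labelled ZBTB7A. Its normalized counts were 3033, 3507, 4204, 4666 and 3762 in GFP control and 3859, 3955, 3843, 3567 and 3357 in ZBTB7A control. All 5 ZBTB7A control values lay inside the range of the GFP values. The log2 difference was -0.03 ± 0.08 (SE), a fold of 0.978 (95% interval 0.866 to 1.10), and an exact two-sided permutation test gave p = 0.802 (n = 5 and 5). The labels do not say from which species the vector's coding sequence came, so reads of a transgene that does not match the mouse gene may not be counted here. The gene therefore gave no check of the labels. Gfap, the astrocyte filament gene whose promoter the vectors carry, overlapped widely between the groups. It stood at 7059.9, 11271, 26388, 4329.6 and 8411 and at 18044, 16701, 11154, 5208 and 8427, a log2 difference of 0.19 ± 0.46 with an exact permutation p = 0.738 (n = 5 and 5).

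No gene passed the test. Of 16385 genes tested with limma on log2 of the normalized count plus 1, 0 (0%) had a Benjamini-Hochberg adjusted p under 0.05, and the smallest adjusted p was 1.00. An unadjusted p under 0.05 was reached by 284 genes (1.73% of those tested), 121 of them higher in ZBTB7A control (0.738%) and 163 lower (0.995%). When no gene differs, this threshold is passed by a share of about 0.05 of genes, so the count shows no excess in this fit. edgeR and DESeq2 on the recovered reads also called 0 genes at an adjusted p under 0.05 and placed 308 and 302 at an unadjusted p under 0.05. Over all tested genes the median log2 difference was -0.01 and 44.7% of genes lay above 0. The median SE of a log2 difference was 0.12, and 0.10 among the 12208 genes with a mean of 100 or more. This SE draws on the spread within all 4 groups (23 libraries) and limits how small a difference could be resolved. Everything that follows is therefore a description of values that did not pass the test, and differences are given as sizes, not as changes.

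**Figure D1:**
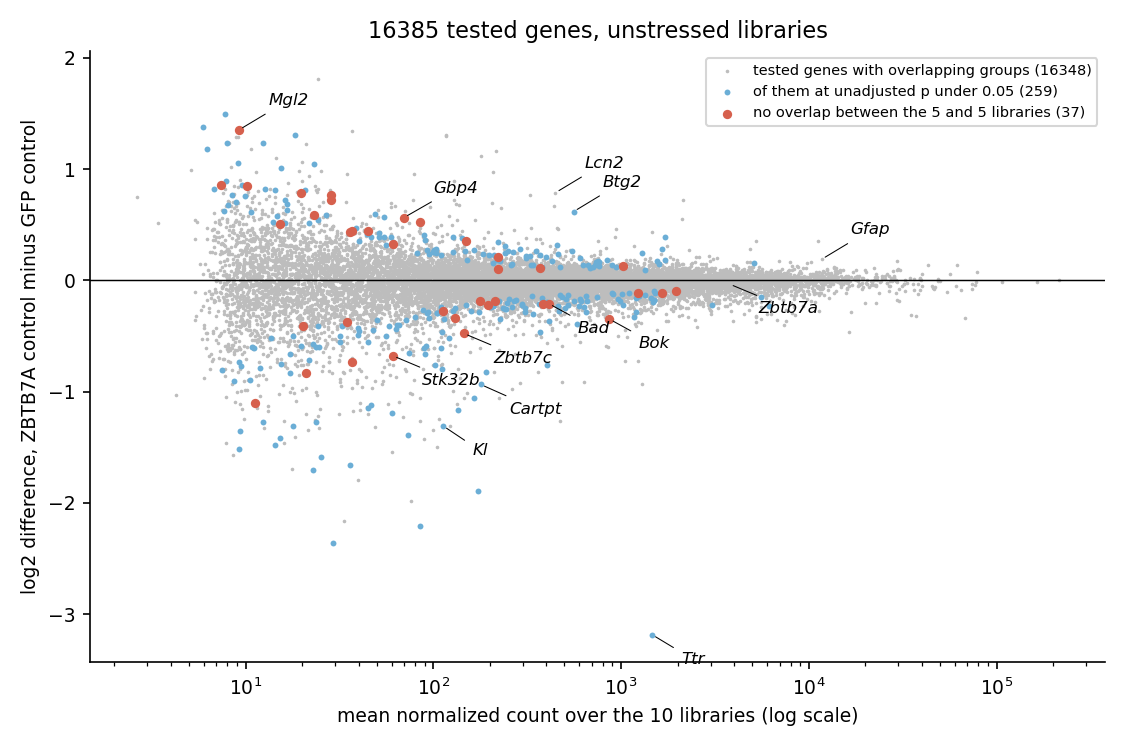
Each point is a tested gene: mean normalized count over the 10 unstressed libraries (x axis, log scale) against the log2 difference of ZBTB7A control and GFP control (y axis). The 37 genes whose 5 and 5 values did not overlap are in red and most lie within 1 log2 unit of 0. The gene farthest from 0, Ttr, is among those with overlapping groups.

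In 37 genes (0.226% of those tested) all 5 ZBTB7A control values lay beyond all 5 GFP control values, 19 of them above (0.116%) and 18 below (0.110%). Among so many genes some separate the groups by chance alone, so separation by itself is no sign of an effect. Of these genes 17 had a mean of 100 or more, 12 of them lower and 5 higher in ZBTB7A control, and 16 had a mean under 50. The members of this set do not belong to 1 pathway by name. They include regulators of cell death (Bad, Bok), a paralog of the vector's factor (Zbtb7c), a dopamine receptor (Drd5), interferon-induced genes (Gbp4, Oasl1) and parts of the traffic between membranes (Copz1, Golph3, Vps28).

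Zbtb7c, a close relative of Zbtb7a with the same kind of BTB and zinc-finger domains, was the member of the ZBTB7 family that separated the groups. Its values were 179, 161, 161, 172 and 168 in GFP control and 135, 131, 83.4, 128 and 135 in ZBTB7A control. GFP control was tightly grouped, and ZBTB7A control 15 was the lowest library by a wide gap. The log2 difference was -0.48 ± 0.16, a fold of 0.719 (95% interval 0.569 to 0.907), and it was -0.33, -0.67 and -0.35 within the 3 runs of title numbers. The third member, Zbtb7b, known as ThPOK for its part in the choice of the helper T cell lineage, ranged from 452 to 1167 against 491 to 865, with overlapping groups. Among 24 tested genes of the ZBTB7 family and of corepressor complexes, 10 lay above 0 and 14 below, and only Zbtb7c was at an unadjusted p under 0.05. Bcor, a corepressor of the BTB factor BCL6, stood at 821, 827, 1293, 1212 and 983 and 904, 907, 847, 840.4 and 1142. Of 5 tested genes that other studies have reported as repressed by ZBTB7A, 3 lay above 0 and 2, Pkm and Mcam, below. The median of the 5 was 0.03, with -0.01 without ZBTB7A control 14 or 15 and 0.13 without ZBTB7A control 6. Of the 5, 4 lay above 0 in that last fit, and 1 was higher at an unadjusted limma p under 0.05. The median was -0.07 with 3 tissue levels (those of striatal, olfactory bulb and choroid plexus genes) as covariates. The pyruvate kinase gene Pkm had a log2 difference of -0.02 and the adhesion gene Mcam of -0.05. The glucose transporter Slc2a3 had a log2 difference of 0.06 ± 0.08, the glycolytic enzyme Pfkp of 0.03 ± 0.09 and the Notch ligand Dll4 of 0.20 ± 0.18.

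Both Bad and Bok, 2 members of the BCL2 family that promote cell death, were lower in every ZBTB7A control library than in any GFP control library. Bad, a BH3-only protein that ties growth-factor signals to the death pathway, stood at 419, 464, 422, 418 and 487 in GFP control and at 418, 381, 387, 378 and 348 in ZBTB7A control. The groups did not overlap, although GFP control 11 and ZBTB7A control 6 nearly met. Its fold was 0.865 (95% interval 0.794 to 0.942, unadjusted p = 0.00193), and its log2 differences within the runs of title numbers were -0.08, -0.13 and -0.42. Bok, a BAX-like effector that can permeabilize the mitochondrial outer membrane, stood at 844, 958, 1053, 1002 and 1005 and at 741, 721, 752, 831 and 768. Its nearest values were those of GFP control 1 and ZBTB7A control 23, and all others were farther apart. Its fold was 0.786 (95% interval 0.677 to 0.912, unadjusted p = 0.00280), with -0.28, -0.48 and -0.33 within the runs.

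The family as a whole did not lie to 1 side. Of 17 tested BCL2 family genes 8 lay above 0 and 9 below, with a median log2 difference of -0.02, and 1 was at an unadjusted p under 0.05 in the higher direction and 2 in the lower. The higher one was Hrk, a BH3-only gene of neurons, at 1286, 1687, 1258, 1437 and 1747 and 1500.2, 2218, 1961, 1619 and 1750.1, with overlapping groups and ZBTB7A control 14 at the top. Bad overlaps Gpr137, a gene for a membrane protein, on the reference annotation, and whether reads were counted by strand is not given in the sources used here. Gpr137 had a log2 difference of -0.06 ± 0.09, smaller than that of Bad.

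The promoters of Bad and Bok are printed because these were the members of 1 protein family whose groups did not overlap. The windows hold the 250 bases before each start site on the sense strand, from RefSeq (GRCm38.p6), with every CG in capitals.
Bad (chr19:6941611-6941860): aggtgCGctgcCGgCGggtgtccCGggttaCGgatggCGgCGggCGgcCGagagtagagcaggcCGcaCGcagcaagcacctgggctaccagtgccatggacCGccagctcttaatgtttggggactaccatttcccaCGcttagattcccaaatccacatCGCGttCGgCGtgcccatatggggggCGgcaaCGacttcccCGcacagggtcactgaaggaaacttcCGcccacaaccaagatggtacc
Bok (chr1:93685325-93685574): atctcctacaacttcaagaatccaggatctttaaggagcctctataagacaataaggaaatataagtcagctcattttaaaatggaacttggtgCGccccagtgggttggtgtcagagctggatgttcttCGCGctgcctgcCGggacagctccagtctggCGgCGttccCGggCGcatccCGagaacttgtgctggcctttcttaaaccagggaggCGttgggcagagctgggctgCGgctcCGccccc
The Bad window holds 21 CG and is 62.8% G or C, and the Bok window holds 12 CG and is 55.2% G or C. The median over tested genes with a listed promoter was 21 CG, and over the separated genes 17. Those medians count CG over the whole listed sequence, at the highest count where a gene has several. They are therefore not on the scale of the printed windows. The letters CCTTCCCC, part of a sequence that ZBTB7A is known to bind, were searched on both strands of the whole listed sequences. They occur in 773 of 12457 tested genes with a listed promoter (6.21%) and in 0 of the 29 separated genes that have one, Bad and Bok included. This says only that these letters are not in those listed sequences.

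**Figure D2:**
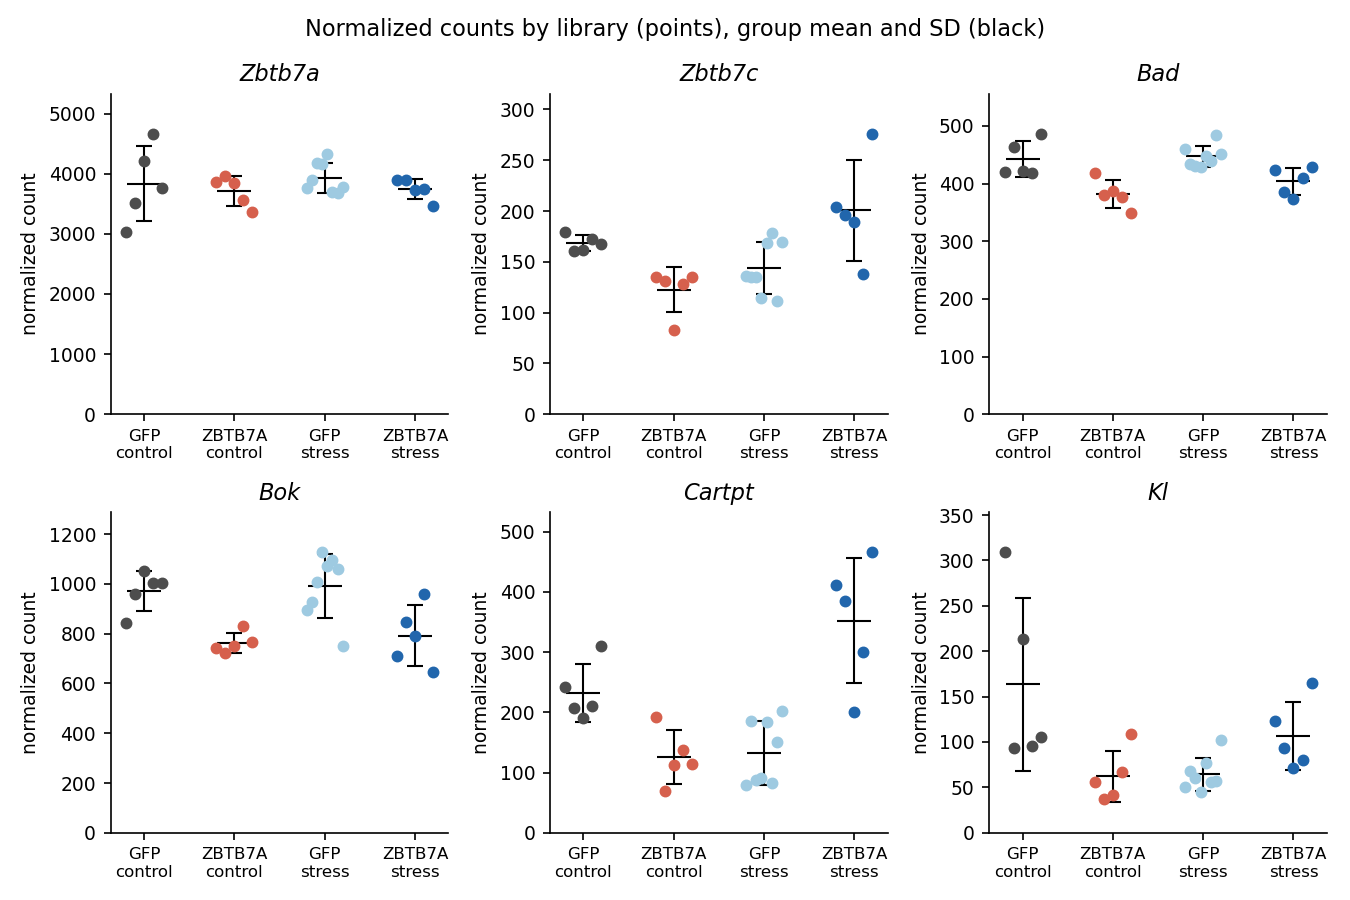
Normalized counts (y axis, from 0) of 6 genes in each library of the 4 groups, with group means and SD in black. Zbtb7a overlaps between the vectors in both conditions. Zbtb7c, Bad and Bok do not overlap between the unstressed groups, and the means of Cartpt and Kl are lower in ZBTB7A control than in GFP control but higher in ZBTB7A stress than in GFP stress.

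Other separated genes with a mean of 50 or more had small or moderate differences. Stk32b, a serine/threonine kinase gene chosen here because its unadjusted p of 0.000544 was the smallest of all, stood at 107, 71.0, 57.3, 81.2 and 62.1 in GFP control and 50.7, 40.63, 46.2, 51.2 and 41.5 in ZBTB7A control. The ZBTB7A libraries lay close together, and GFP control 1 was the highest. Drd5, the dopamine D5 receptor, stood at 120.3, 122, 124, 135 and 116 and at 94.4, 108, 106, 103 and 98.0, with 0.14 as its unadjusted p. Coprs, which couples an arginine methyltransferase to histones, ranged from 377 to 474 in GFP control and 335 to 376 in ZBTB7A control. Golph3, a Golgi membrane protein, ranged from 1972 to 2077 and 1741 to 1972.

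Among the separated genes that were higher in ZBTB7A control, Gbp4 encodes a guanylate-binding protein that interferons induce. Its values were 60.5, 34.7, 60.0, 60.3 and 67.7 in GFP control and 75.2, 70.7, 78.9, 104 and 85.9 in ZBTB7A control, a log2 difference of 0.56 ± 0.18. GFP control 2 was the lowest by a gap and ZBTB7A control 23 the highest. Oasl1, the other interferon-induced gene named, had low values, with means of 4.93 in GFP control and 9.80 in ZBTB7A control. Its log2 difference was 0.86 without stress and -0.40 after it. Copz1, a subunit of the COPI coat of transport vesicles, ranged from 900.2 to 1030.2 in GFP control and 1039 to 1100.1 in ZBTB7A control, a fold of 1.09. The uncharacterized 3110070M22Rik and the Kelch-family gene Klhl35 had larger differences of 0.77 ± 0.20 and 0.73 ± 0.23 on the log2 scale, at means under 50 normalized counts. They were chosen for naming after their values were seen, as were Stk32b, Coprs, Golph3, Gbp4, Oasl1 and Vps28, and, for their overlaps with other genes, Gpr137 and Cnot3.

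Beyond the separated genes, the genes of smallest unadjusted p with a mean of 100 or more had unlike functions. Btg2, an antiproliferative gene that neuronal activity induces, led the higher direction with 739, 349, 498, 306 and 347 in GFP control and 596, 689, 482, 979 and 603 in ZBTB7A control. GFP control 1 lay above 4 of the ZBTB7A libraries, and ZBTB7A control 23 was the highest of all. Its fold was 1.54 (95% interval 1.14 to 2.07). Trim24, a transcriptional coregulator, ranged from 618 to 678 and 671 to 772. Tnip2, an inhibitor of NF-kB signalling, ranged from 262 to 313 and 297 to 353. Fras1, an extracellular matrix protein of basement membranes, Zkscan2, a zinc-finger gene, Tarbp1, an RNA methyltransferase gene, and Cep76, a centriole protein gene, had folds of 1.19, 1.20, 1.17 and 1.21. The long noncoding RNA gene 2610035D17Rik had 1.20. Leng1, at 1.20, overlaps Cnot3, a subunit of the CCR4-NOT deadenylase whose own fold was 0.958.

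In the lower direction Kl, the co-receptor klotho that choroid plexus secretes, had the smallest unadjusted p (0.000619) at this level. Its values were 309, 93.6, 213, 95.1 and 106 in GFP control and 56.0, 37.6, 41.7, 66.7 and 108 in ZBTB7A control. GFP control 1 and 10 were the high libraries, and ZBTB7A control 24 lay above the other 3 GFP libraries. Agt, the angiotensin precursor that astrocytes make, stood at 541, 189.6, 117, 219.6 and 100.2 and 171, 87.3, 80.4, 82.9 and 66.3, with GFP control 1 far above the rest. Cartpt, the precursor of the CART neuropeptides, stood at 241, 207, 191, 211 and 310.4 and 192, 69.2, 113, 138 and 115. The groups met only at ZBTB7A control 6, which lay just above GFP control 10. Rgs16, which speeds GTP hydrolysis by G proteins, ranged from 302 to 393 against 244 to 304, with ZBTB7A control 24 just above GFP control 11.

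Smaller differences in the same direction were seen in Ppia, the cyclophilin A gene, with a fold of 0.798, and Atox1, a copper chaperone, with 0.854. Ppia has many processed copies in the genome, and how reads shared with them were counted is not given. The clustered protocadherin Pcdhb5 had a fold of 0.787, with the same limit for its near-identical neighbours. Etnppl, an enzyme of phospholipid breakdown that marks astrocytes and was chosen after its values were seen, stood at 628, 808, 281, 263 and 617 and at 451, 203, 271, 217 and 308. Its GFP values fall into a high set (1, 2 and 19) and a low one (10 and 11), and the low ones lie among the ZBTB7A values.

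Homeostatic astrocyte genes differed little in the main fit. Of 30 tested, 10 lay above 0 and 20 below, none was at an unadjusted p under 0.05 and the median log2 difference was -0.05 (from -0.09 without ZBTB7A control 6 to -0.01 without GFP control 10). Without ZBTB7A control 6, 26 of the 30 lay below 0, and 3 were lower at an unadjusted limma p under 0.05. With 3 tissue levels as covariates the median turned to 0.03. The glutamate transporters Slc1a2 and Slc1a3 had folds of 1.04 (95% interval 0.936 to 1.16) and 1.02 (0.888 to 1.17). Glul, which turns glutamate into glutamine, had 0.936 (0.8285 to 1.06). Aqp4, the water channel of astrocyte endfeet, stood at 2776, 3432, 3658, 1801 and 2919 and at 2972, 2856, 2381, 2018 and 2798, and GFP control 11 was the lowest library. Kcnj10, the potassium channel Kir4.1, ranged from 3926 to 6134 and 4006 to 5034, and F3, tissue factor, from 658 to 1164 and 601 to 969.

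Reactive astrocyte genes were spread widely within both groups. Lcn2, a secreted lipocalin, stood at 29.0, 46.0, 2047, 17.8 and 200.4 in GFP control and 477, 1308, 34.2, 286 and 25.4 in ZBTB7A control. GFP control 10 and ZBTB7A control 14 were the high libraries, and both groups also held libraries under 50. Complement C3 was highest in the same 2 libraries, at 389, 434, 6416, 58.8 and 906 and 1605, 3664, 540.5, 376 and 224. Of 23 tested members 15 lay above 0, with a median of 0.09 and none at an unadjusted p under 0.05. That sign was not stable: the median was -0.06 with edgeR, -0.06 with DESeq2 and -0.18 with array weights, and with 1 library left out it ran from -0.11 without ZBTB7A control 14 to 0.34 without GFP control 10. It was also below 0 without GFP control 1, GFP control 11 or ZBTB7A control 6, the last with 10 of 23 members above 0. The list's level, the mean of its members' log2 values centred over the 23 libraries, ranged from -0.93 to 1.42 in GFP control and -0.25 to 1.02 in ZBTB7A control. The intervals of Lcn2 (0.253 to 11.8) and C3 (0.263 to 7.00) span both directions, so an effect on them was not detectable with these libraries. Fbln5, an elastic-fibre protein of the same list, had a fold of 0.880.

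Most genes of NF-kB signalling, interferon response and microglia lay above 0 without passing the test, and the sizes depended on single libraries. Of 30 interferon and antigen-presentation genes 24 lay above 0, with a median log2 difference of 0.12 (from 0.05 without ZBTB7A control 23 to 0.21 without ZBTB7A control 15) and 1 at an unadjusted p under 0.05. That gene was Tap1, a peptide transporter for MHC class I, at 93.8, 106, 139, 111 and 102 and 147, 150.5, 115, 187 and 129, and 1 GFP library, GFP control 10, reached into the ZBTB7A range. Its partner Tap2 had a fold of 0.890 in the other direction, and Irf9, part of the interferon-activated factor ISGF3, of 1.09. Of 25 microglia genes 22 lay above 0 (median 0.09, from -0.02 without GFP control 11 to 0.23 without GFP control 10, and -0.05 with array weights), with folds of 1.16 for Tmem119, a membrane marker, and 1.12 for the purine receptor P2ry13. Without ZBTB7A control 6, 14 of the 25 lay above 0 and the median was 0.00. Of 23 NF-kB genes 14 lay above 0 (median 0.05, from 0.01 without ZBTB7A control 14 to 0.12 without GFP control 10). Nfkbia, the inhibitor of NF-kB, stood at 479.9, 936, 456, 404 and 365 and 483, 436, 395, 398 and 394, and only GFP control 2 stood out. Relb, an NF-kB subunit, had a fold of 0.855. The chemokine Cxcl10 stood at 17.6, 8.07, 41.3, 3.87 and 14.1 and 27.98, 49.7, 7.44, 61.7 and 19.6, low values with overlapping groups.

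Of the 38 lists, the median farthest from 0 belonged to genes that mark the choroid plexus and ependyma, which line the ventricles and make cerebrospinal fluid. Of 16 tested members 15 lay below 0, 6 were at an unadjusted p under 0.05 and none separated the groups, with a median log2 difference of -1.32. Ttr, the thyroid hormone carrier that choroid plexus makes in bulk, stood at 7567, 194, 4890.3, 844 and 241 and at 449, 21.1, 87.8, 162 and 165. GFP control 1 and 10 were the high libraries, and GFP control 2 and 19 lay within the ZBTB7A range. Clic6, a chloride channel protein of the same epithelium, stood at 410.0, 237, 268, 143 and 129.8 and 389.9, 19.6, 23.8, 45.6 and 74.4, where ZBTB7A control 6 lay with the GFP libraries and the other 4 below all of them. The list's level ranged from -0.10 to 2.64 in GFP control and -0.87 to 1.49 in ZBTB7A control, and differed by -0.35, -1.76 and -0.58 within the runs. Its median was below 0 in every alternative fit but moved widely, to -0.03 with 3 tissue levels as covariates, 1 of which is the level of this list itself, and to -0.59 among members with a mean of 50 or more. It was -0.90 without GFP control 1, -1.12 without GFP control 10 and -1.87 without ZBTB7A control 6. How much ventricular tissue each dissection took was not measured, and its part in the result was not tested.

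**Figure D3:**
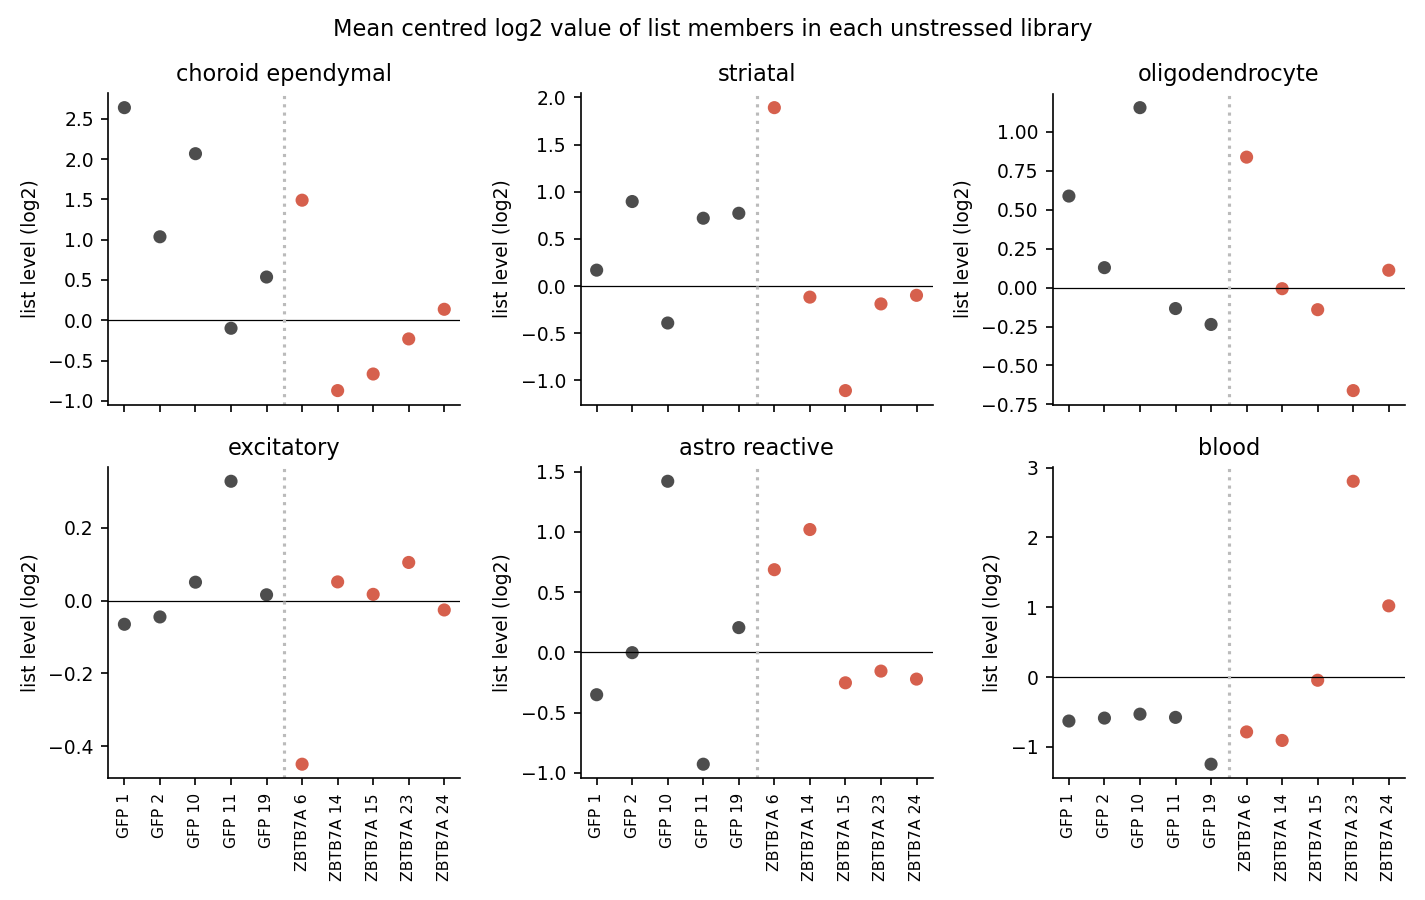
Level of 6 gene lists (y axis, mean of members' log2 values centred over all 23 libraries, so 0 is the average library) in each of the 10 unstressed libraries (x axis, by number). ZBTB7A control 6 is highest for striatal genes and lowest for excitatory neuron genes, ZBTB7A control 23 is highest for blood genes and GFP control 1 and 10 are highest for choroid plexus genes.

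Other lists that mark tissue around the cortex also turned on single libraries. All 20 tested genes of striatal medium spiny neurons lay below 0 (median -0.30, turning to 0.02 with edgeR and 0.02 with DESeq2), and none was at an unadjusted p under 0.05. Their level was 1.89 in ZBTB7A control 6 and -1.11 in ZBTB7A control 15, the highest and lowest of the 10, and the differences within the runs were 1.36, -0.78 and -0.92. Without ZBTB7A control 6 the median was -0.71, and without ZBTB7A control 15 it was 0.00. Isl1, a transcription factor of striatal and septal neurons, stood at 208, 147, 68.0, 90.5 and 102 and 255, 24.1, 16.4, 34.5 and 47.3, and again ZBTB7A control 6 was the highest library while the other 4 lay below every GFP value. All 24 oligodendrocyte and myelin genes lay below 0 (median -0.27), with run differences of 0.48, -0.58 and -0.04. With 1 library left out that median ran from -0.49 without ZBTB7A control 6 to -0.07 without GFP control 10, it was -0.09 without ZBTB7A control 23, and it turned to 0.27 with 3 tissue levels as covariates. Enpp2, the phospholipase autotaxin of that list and also a choroid plexus product, stood at 10086, 4839, 10322, 4392 and 4686 and 5877, 4846, 5293, 4569.6 and 5261, with GFP control 1 and 10 high as for Ttr. The precursor marker Pdgfra had a fold of 0.924.

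Blood genes went the other way through ZBTB7A control 23 and 24. Alas2, the heme enzyme of red cells, stood at 37.8, 48.4, 58.6, 54.9 and 18.3 and 40.2, 36.1, 70.0, 649 and 160.3, and the globin gene Hba-a2 at 83.1, 93.6, 76.0, 91.2 and 67.7 and 73.4, 85.8, 129.5, 842 and 260.1. The other 3 ZBTB7A libraries lay at or near the GFP range. All 3 of the 3 tested blood genes had log2 differences above 0 (median 1.12), with -0.18, 0.08 and 3.16 within the runs.

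Neuronal signalling genes showed few differences. Among 23 neuropeptide precursors 16 lay below 0 (median -0.15), with Cartpt, given above, at an unadjusted p under 0.05. Nts, the neurotensin precursor, stood at 278, 182, 41.3, 62.6 and 88.9 and 295, 16.6, 10.4, 22.2 and 48.4, and Pnoc, the nociceptin precursor, at 335, 258, 384, 305 and 131 and 449, 167, 153, 159 and 157. For both, ZBTB7A control 6 exceeded every GFP library, and the other 4 ZBTB7A libraries were far lower. Without it the list's median was 0.01. The interneuron peptide Sst had a fold of 0.881 and the secreted glycoprotein Reln of 1.16, with 17 of 23 interneuron genes below 0 (median -0.16). Without ZBTB7A control 6, 12 of the 23 lay below 0 (median -0.04). Of 30 serotonin, adrenergic, dopamine and muscarinic receptor genes 21 lay below 0 (median -0.11, and -0.06 without ZBTB7A control 6) and only Drd5, given above, separated the groups. Adra2a, the alpha-2A adrenergic receptor, ranged from 484 to 750.0 and 406 to 617, and the serotonin receptor Htr7 from 109 to 314 and 89.3 to 241.

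Activity and stress-hormone genes leaned in opposite directions. Of 26 immediate early genes 18 lay above 0 (median 0.10, from 0.06 without GFP control 2 to 0.16 without GFP control 10), with Btg2, given above, at an unadjusted p under 0.05, and differences of 0.28, -0.32 and 0.50 within the runs. Dusp1, a phosphatase that ends MAP kinase signals and responds both to activity and to glucocorticoids, stood at 1001, 649.6, 1033, 657 and 642 and 1040.3, 932, 979.7, 1552 and 963, with ZBTB7A control 23 the highest. Of 20 glucocorticoid receptor and target genes 16 lay below 0 (median -0.15). Tsc22d3, the glucocorticoid-induced leucine zipper, stood at 1512, 1817, 1162, 1019 and 1118 and 1128, 898, 1081, 1148 and 1071, and the kinase Sgk1 at 1913, 4382, 1526, 1351 and 1314 and 1836, 1413, 1437, 1323 and 1285. GFP control 2 was the highest library for both, and the list's median without it was -0.03.

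The oxidative phosphorylation and cholesterol lists showed small differences shared by most members, and glycolysis was more mixed. Of 23 glycolysis and lactate genes 9 lay above 0 and 14 below (median -0.03). Without ZBTB7A control 6, 14 of them lay above 0 and 9 below (median 0.01). Of 40 oxidative phosphorylation subunits 38 lay below 0, with a median log2 difference of -0.07 (from -0.10 without GFP control 10 to -0.04 without GFP control 19) and 2 at an unadjusted p under 0.05. These were Uqcrq, a subunit of complex III, with 1487 to 1707 in GFP control and 1251 to 1527 in ZBTB7A control, and Cox8a, a subunit of complex IV, with 5655 to 6492 and 4974 to 5869. Cox5a, another subunit of complex IV, had a fold of 0.861 (95% interval 0.740 to 1.00). All 27 cholesterol and fatty acid synthesis genes lay below 0 (median -0.10), 2 of them at an unadjusted p under 0.05. Pmvk, the phosphomevalonate kinase, stood at 705, 636, 596, 619 and 645 and 455, 558, 579, 629.6 and 646, and Scd1, the stearoyl-CoA desaturase, at 7008, 6813, 8235, 5447 and 5877 and 6188, 5300.3, 5949, 5116 and 5696. The cholesterol median turned to 0.02 when libraries were weighted by their fit. ZBTB7A control 6 was the lowest library for Pmvk, and without it the list had 10 of 27 members above 0 and a median of -0.05. Msmo1, a sterol oxidase, had a fold of 0.903. Herpud1, a gene of protein disposal at the endoplasmic reticulum, was the member of 27 chaperone and unfolded-protein genes at an unadjusted p under 0.05, with 1182 to 1346 in GFP control and 1062 to 1238 in ZBTB7A control.

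Over all 38 lists, which hold 864 tested genes, 24 members (2.78%) were at an unadjusted p under 0.05 and 4 separated the groups, beside the 1.73% and 0.226% over all tested genes. The 4 were Zbtb7c, Bad, Bok and Drd5. Of the 24 members at an unadjusted p under 0.05, 6 belonged to the choroid plexus and ependyma list of 16 tested genes.

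**Figure D4:**
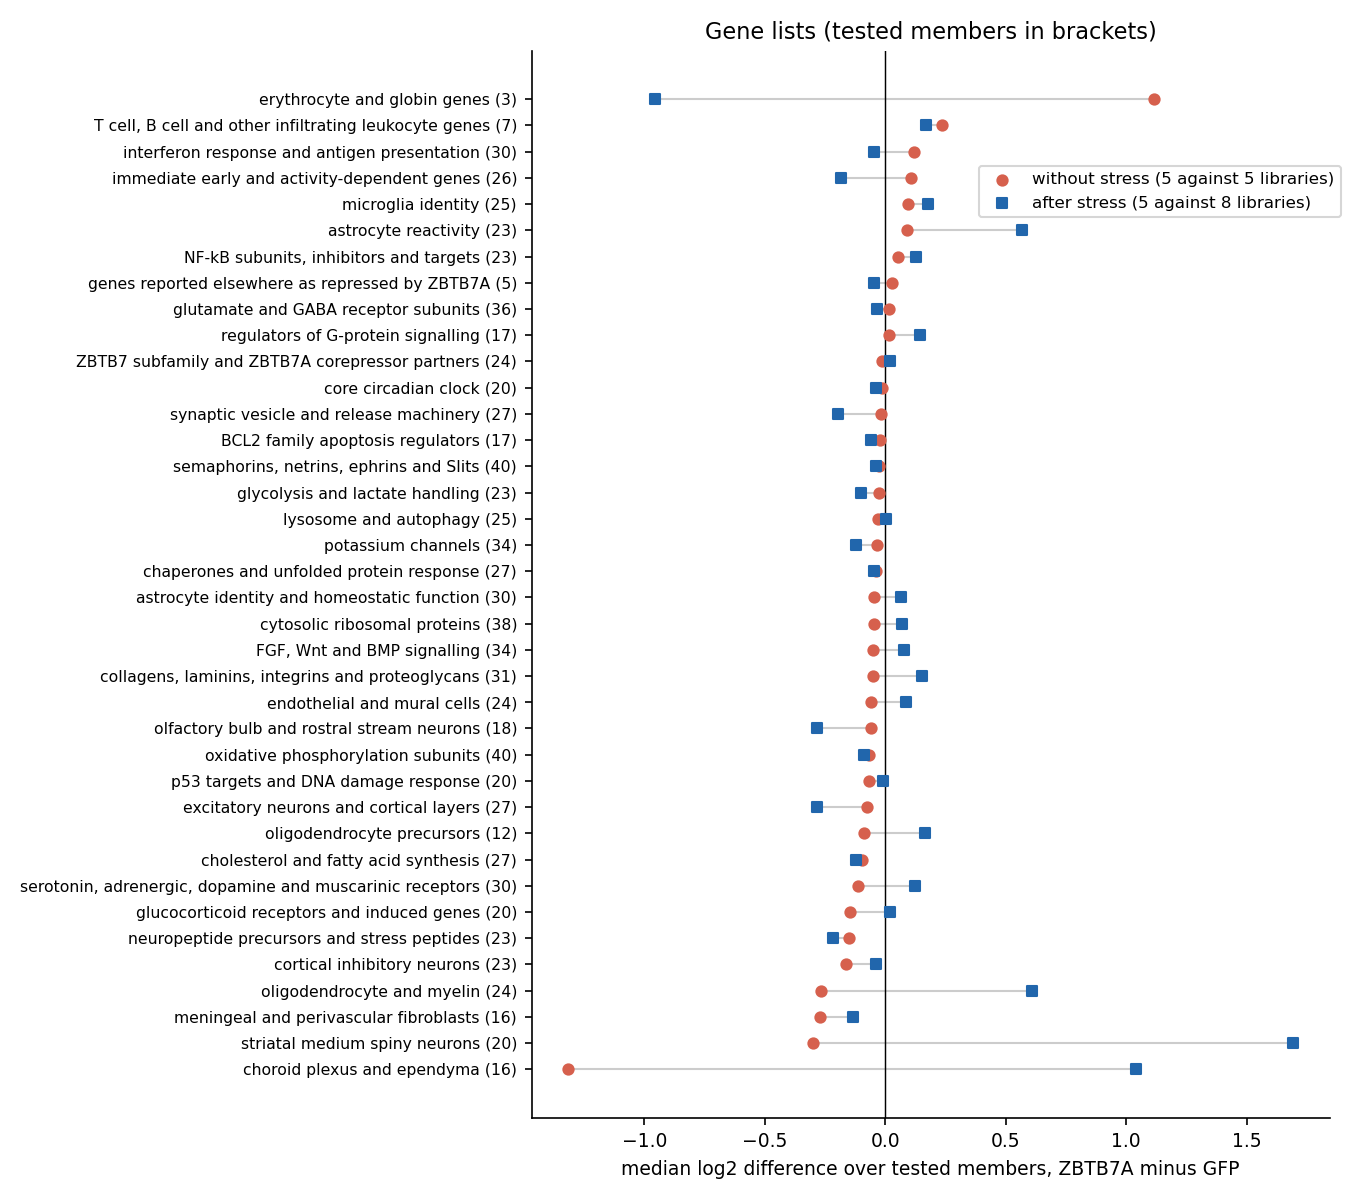
Median log2 difference of ZBTB7A and GFP (x axis) over the tested members of each of 38 gene lists (y axis, number of tested members in brackets), without stress (red circles) and after stress (blue squares). Choroid plexus, striatal and oligodendrocyte lists lie below 0 without stress and above 0 after stress, and blood genes the reverse.

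The same contrast could be read in the stressed mice, which share no library with the unstressed ones. Of the 284 genes at an unadjusted p under 0.05 without stress, 142 (50%) had the same sign between ZBTB7A stress and GFP stress, where the share over all tested genes was 49.0%. Of the 37 separated genes 24 had the same sign (64.9%). In the stressed comparison 0 genes (0%) passed an adjusted p under 0.05 by limma, with a smallest adjusted p of 0.183, but 2635 (16.1%) were at an unadjusted p under 0.05 and 164 (1.00%) had all 5 ZBTB7A values beyond all 8 GFP values. Bad was the gene separated the same way in both, although its groups nearly met in each. Of the 38 lists 18 had medians of opposite sign in the 2 comparisons.

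Bad and Bok had lower values in the libraries labelled ZBTB7A in both conditions. After stress the ZBTB7A libraries had Bad at 423, 386, 374, 409 and 428, and the lowest, median and highest of the 8 GFP libraries were 429, 444 and 484. The nearest values were 428.4 under ZBTB7A and 428.7 under GFP. The log2 differences were -0.21 ± 0.06 without stress and -0.15 ± 0.05 after it. For Bok the ZBTB7A stress values were 709.7, 849, 792, 961 and 646 against 749.9, 1034 and 1128, with log2 differences of -0.35 ± 0.10 and -0.33 ± 0.09. Coprs and Golph3 also kept their sign, at -0.33 ± 0.08 and -0.16 ± 0.05 after stress. In the higher direction Fras1 and Trim24 kept theirs, at 0.28 ± 0.08 and 0.09 ± 0.04 after stress. Of the 284 genes at an unadjusted limma p under 0.05 without stress, 33 were so after stress with the same sign. Another 20 were so with the opposite sign. Over all 16385 tested genes, 1186 were at that threshold after stress with the same sign and 1449 with the opposite sign.

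Cartpt, Kl and Zbtb7c differed in opposite directions. After stress Cartpt stood at 411, 384, 200.2, 299.6 and 466 under ZBTB7A, and at a lowest, median and highest value of 78.8, 120.5 and 202 under GFP. Its log2 difference was -0.93 ± 0.30 without stress and 1.45 ± 0.27 after it, and the test of the difference between the conditions gave 2.38 ± 0.40 with a limma adjusted p = 0.0976, the smallest of any gene. For Zbtb7c the log2 differences were -0.48 ± 0.16 and 0.46 ± 0.15, and for Kl -1.31 ± 0.33 and 0.70 ± 0.30, with limma adjusted p = 0.668 for the difference of each. No gene (0 of 16385, 0%) passed an adjusted p under 0.05 in that test. The choroid plexus and striatal lists also had opposite signs in the 2 conditions, with medians of 1.04 and 1.69 after stress, and their part in the differences of Cartpt and Kl was not tested.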

How the data were processed

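Per the labels' protocols, Trizol extracts were cleaned on RNeasy Micro columns before TruSeq RNA v2 library preparation. The submitters' processing notes name DESeq2 2.11.40.6, the aligner HISAT2 2.1.0 and the counter featureCounts 2.0.1, and the builds mm10 and mm9, with no role or order. The values the authors deposited are a signal: gene counts divided by a size factor. Dividing by each library's smallest step gave whole reads for 100% of values within 0.02 reads. Of 27606 entries, 428 exact repeats were removed, and 16385 genes with a value of 10 or more in at least 5 of the 23 libraries were tested.

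Log2 of the value plus 1 was fitted with limma 3.58.1 (R 4.3.3) as 4 group means, with trend and robust variances and Benjamini-Hochberg adjustment. The code was tested on simulated data. Alternatives were edgeR 4.0.16 and DESeq2 1.42.0 on the whole reads, TMM scaling, other filters, pseudocount, covariates and weights, only the 10 libraries, and each library left out. The 3 tissue levels used as covariates were those of the striatal, olfactory bulb and choroid plexus lists. Tables and figures used Python 3.11.15 with pandas 2.3.3, numpy 2.4.6, scipy 1.17.1 and matplotlib 3.10.9.

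The comparison, the gene lists and the panel were chosen with earlier results of these data known. Named genes are Zbtb7a, a panel of astrocyte and inflammation genes, the 10 genes of smallest unadjusted p in each direction with a mean of 100 or more, and up to 3 members of each list by smallest unadjusted p with a mean of 50 or more; others are said to be chosen after their values were seen.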

Additional observations from a re-analysis of the deposited data

Results flagged for a closer look

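Each named gene and list level was screened for a library far from the other 4 of its group, by the ratio of its gap to the group's range. Of 202 groups screened, 26 held such a library. Chance gives about 1 in 20 only for groups that were not chosen by their values. Many of these genes were so chosen, and the groups share the same libraries, so 26 is no measure of an excess.

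Among the 10 libraries, ZBTB7A control 6 stood out most often. It was the highest of its group for Nts (295.5 normalized counts, next 48.4), Isl1 (255, next 47.3), Clic6 (389.9, next 74.4), Pnoc (449, next 167), Htr7 (241, next 133), Agt (171, next 87.3), F3 (969, next 707) and Sgk1 (1836, next 1437). It was the lowest for the level of the excitatory neuron list, at -0.45 against -0.03 for the next library.

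ZBTB7A control 23 was far above its group for the blood genes Alas2 (649, next 160.3) and Hba-a2 (842, next 260.1) and for Dusp1 (1552, next 1040.3). ZBTB7A control 15 was lowest for Zbtb7c (83.4, next 128) and highest for the glutamate transporter Slc1a2 (62720, next 56740). ZBTB7A control 24 was highest for Bcor (1142, next 907) and ZBTB7A control 14 for Efnb2 (2120, next 1773).

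In GFP control, library 10 was far above the others for Lcn2 (2047, next 200.4) and C3 (6416, next 906), and library 1 for Agt (541, next 219.6). GFP control 2 was highest for Nfkbia (936, next 479.9), Sgk1 (4382, next 1913) and the level of the glucocorticoid list (0.64, next 0.09), and lowest for Gbp4 (34.7, next 60.0). GFP control 11 was highest for Cox5a (3512, next 2578). GFP control 19 was highest for Cox8a (6492, next 5830) and lowest for the level of the blood list (-1.25, next -0.63).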

How the results depend on the processing

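Between ZBTB7A control and GFP control, no gene had an adjusted p under 0.05 in the main analysis or in any of the 22 alternatives, leave-one-out fits included, and none did in this comparison at a threshold of 0.1. The count at an unadjusted p under 0.05 was less stable: 284 became 607 with no filter, 167 with only the 10 libraries, 2026 with array weights and 1258 with 3 tissue levels as covariates. It ran from 224 to 1038 when 1 library was left out, with 664 without GFP control 11 and 1038 without ZBTB7A control 6. The counts of 2026, 1258 and 1038 are above a share of 0.05 of the 16385 genes in those fits, unlike the main count. The share of these genes higher in ZBTB7A control was 42.6% in the main analysis and 30.4% with 3 tissue levels. The 37 genes without overlap became 21 at a mean of 50 or more and 62 to 333 with 1 library left out, where smaller groups overlap less by construction, and 333 was the count without ZBTB7A control 6. The share of genes with the same sign after stress was 50% and moved to 44.0% with no filter, 43.7% with DESeq2, 24.9% with array weights, 63.1% with the runs of title numbers as a factor and 38.55% with 3 tissue levels. It ran from 21.3% without ZBTB7A control 6 to 69.9% without GFP control 1, and the fit of only the 10 libraries holds no stressed ones and gave no value. The cause of these shifts was not tested.

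No paired analysis was possible because the groups share no replicate number in the titles.

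The difference of Zbtb7a (-0.03) turned sign without GFP control 10, GFP control 11 or ZBTB7A control 24, within a leave-one-out range of -0.113 to 0.0425. Of the other 85 named genes, 74 kept their sign in every alternative and 11 did not. With 3 tissue levels the log2 differences turned to -0.069 for Slc2a3, -0.12 for Pfkp, 0.13 for Aqp4 and 0.054 for Enpp2. edgeR and DESeq2 turned Lcn2 to -0.12 and -0.13 and C3 to -0.36 and -0.36. Array weights turned Gfap to -0.22, Slc1a3 to -0.069, C3 to -0.17, Slc17a7 to 0.29 and Gpr137 to 0.0059. With 1 library left out the ranges that cross 0 were -0.020 to 0.129 for Pfkp, -0.093 to 0.559 for Gfap, -0.068 to 0.075 for Slc1a3, -0.37 to 1.31 for C3, -0.30 to 0.28 for Slc17a7 and -0.201 to 0.037 for Cnot3. Of the 37 lists with at least 5 tested members, 12 kept the sign of their median in every alternative. The median turned in 13 lists with array weights, in 11 with 3 tissue levels and in 8 without ZBTB7A control 6.

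With a median SE of 0.12 on the log2 scale, small differences could not be resolved, and low genes such as Cxcl10 are pulled towards 0 by the pseudocount.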

Other observations

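Axon guidance and matrix lists had medians near 0 that depended on single libraries, with few genes at an unadjusted p under 0.05. Of 40 tested semaphorins, netrins, ephrins and Slits 15 lay above 0 and 25 below (median -0.03). The median lay above 0 with array weights (0.04) and without GFP control 10 (0.01), GFP control 11 (0.02) or ZBTB7A control 6 (0.02, with 22 of 40 above). Ntn1, the secreted guidance cue netrin-1, stood at 357, 441, 344, 483 and 518 in GFP control and 402, 262, 287, 280.3 and 318 in ZBTB7A control. All ZBTB7A libraries but number 6 lay below every GFP value. After stress its log2 difference was 0.93 ± 0.18, against -0.46 ± 0.20 without stress. Efnb2, the membrane ligand ephrin-B2, had a fold of 1.14 without stress and a log2 difference of 0.22 ± 0.08 after it. Among 31 matrix genes 22 lay below 0 (median -0.05, and 0.00 without GFP control 10), while Tnc, the glycoprotein tenascin-C, ranged from 73.7 to 115 in GFP control and 101 to 154 in ZBTB7A control. Of 20 p53 and DNA damage genes 14 lay below 0 (median -0.07, and -0.01 without GFP control 10), with Plk2, a kinase that tunes synapses, at a fold of 1.12.

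Synaptic, channel and protein-synthesis lists lay near 0. The medians were 0.02 over 36 glutamate and GABA receptor subunits, -0.02 over 27 genes of synaptic vesicles, -0.03 over 34 potassium channels, -0.05 over 38 cytosolic ribosomal proteins and -0.01 over 20 clock genes. None of these 5 lists had a member at an unadjusted p under 0.05. Without ZBTB7A control 6 the receptor median was 0.06, the ribosomal median -0.09, the vesicle median 0.11 and the potassium channel median 0.06. Hspa5, the main chaperone of the endoplasmic reticulum, ranged from 4859.6 to 5562 in GFP control and 4476 to 4887 in ZBTB7A control, a fold of 0.918.

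Of the 284 genes at an unadjusted p under 0.05, 47 stayed so, with the same sign, in each of the 10 fits that left out 1 library, 16 higher and 31 lower in ZBTB7A control. These fits share most of their libraries and are no independent check. Among the 47 were Zbtb7c, Bad, Bok, Kl, Cartpt, Clic6, Agt, Etnppl, Rgs16 and Stk32b on the lower side and Btg2, Gbp4, Trim24, Tnip2 and Copz1 on the higher. Without ZBTB7A control 6, 1038 genes were at an unadjusted p under 0.05, 393 higher and 645 lower, and 194 of them were among the 284.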
